A study of Mus musculus with 33 samples.

Results

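Cathepsins are the proteases of the endosome and lysosome, and 10 of their genes (Ctsa, Ctsb, Ctsc, Ctsd, Ctse, Ctsh, Ctsk, Ctsl, Ctss and Ctsz) were followed by name across the 7 groups of thymus arrays, out of 18193 genes on the array with a probe set of 1 gene symbol. All 22 of their probe sets passed the filter on low signal, and each gene was represented by its brightest probe set, as were the 13463 genes tested. The arrays held RNA of thymus from C57BL/6J mice, labelled C57BL6 or C57bl6/J, male and 4 to 6 weeks old, with no transgene or treatment in any group. Microdissected tissue gave 23 arrays: 7 of whole medulla, 7 of whole cortex and 3 each of cortex taken under the capsule (subcapsular), from its middle (central) and next to the medulla (perimedullary). Sorted cells gave 10 arrays: 5 of cortical thymocytes, gated as CD3-/lo, CD45+ and either CD90+ or CD117+, and 5 of medullary thymocytes, gated as CD3hi and CD45+. Means ± SD are over these numbers of arrays (n). The sorted fractions are therefore defined by surface phenotype and not by position, and the tissue arrays hold thymocytes together with stroma. Tissue RNA was prepared with RNAqueous Micro and sorted-cell RNA with RNeasy Mini kits, so in tissue against sorted cells the kit and the cell source cannot be told apart.

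Most of these enzymes are cysteine proteases of the papain family, while Ctsd and Ctse are aspartic proteases and Ctsa is a serine carboxypeptidase. Antigen-presenting cells use them to degrade the invariant chain Cd74, which blocks the groove of new MHC class II molecules, and to cut proteins into peptides for it. In the mouse thymus, cathepsin L is known as the enzyme that does this in cortical epithelium, where positive selection takes place, and cathepsin S as the one used by dendritic cells and other bone marrow-derived cells. Cystatins, stefins and the Ctla2 proteins are their natural inhibitors.

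In these data Ctsl and Ctss ran in opposite directions. Ctsl was higher in cortex than in medulla and Ctss higher in medulla, and both held in dissected tissue and in sorted thymocytes. Ctsh and Ctsz were higher in medulla than in cortex in tissue but not in sorted thymocytes. Ctsh and Ctss were also higher in the perimedullary part of the cortex than in its central and subcapsular parts. The probe sets of Ctse contradicted each other, and that gene has no settled direction.

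Of the 10 genes, 7 had an entry among the RefSeq promoter windows (build GRCm38.p6), in which the 250 bases before the annotated start were searched; Ctsb, Ctse and Ctsh were not matched. The motif CACGTG is the core of the CLEAR element, through which TFEB and TFE3 are known to act on lysosomal genes, and GAAANNGAAA is the core of the interferon-stimulated response element. Both strands were searched, and no window of these genes held both motifs. Of 8 windows of these genes, 3 held CACGTG (Ctsd, Ctsl and 1 of the 2 windows of Ctsa) and 1 held GAAANNGAAA (Ctss). Of 32851 windows of the same length over all genes, 6.02% held CACGTG and 2.98% held GAAANNGAAA. The windows of the opposed pair Ctss and Ctsl and that of Ctsd, with 2 matches, are given 5′ to 3′ along the gene's strand with the motifs in capitals; they lie at chr3:95526536-95526785 (plus strand), chr13:64370521-64370770 (minus strand) and chr7:142387828-142388077 (minus strand). A match describes letters only.
Ctss: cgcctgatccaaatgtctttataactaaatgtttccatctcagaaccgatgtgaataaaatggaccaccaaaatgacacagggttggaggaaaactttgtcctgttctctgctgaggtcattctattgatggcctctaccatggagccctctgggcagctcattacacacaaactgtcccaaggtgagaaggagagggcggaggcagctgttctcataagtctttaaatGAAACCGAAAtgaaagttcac
Ctsl: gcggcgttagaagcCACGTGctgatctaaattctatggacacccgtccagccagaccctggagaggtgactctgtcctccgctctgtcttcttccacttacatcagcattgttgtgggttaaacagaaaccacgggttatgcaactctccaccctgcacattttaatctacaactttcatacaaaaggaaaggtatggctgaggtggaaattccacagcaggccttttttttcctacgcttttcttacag
Ctsd: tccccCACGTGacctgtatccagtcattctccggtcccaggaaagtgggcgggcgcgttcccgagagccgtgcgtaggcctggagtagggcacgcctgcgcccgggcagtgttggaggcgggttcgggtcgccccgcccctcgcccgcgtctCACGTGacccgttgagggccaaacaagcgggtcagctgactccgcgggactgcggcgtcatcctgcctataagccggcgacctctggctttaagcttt

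Several arrays stood apart. The 9 subregion arrays, although labelled male, gave Xist signals of 9826 to 15200, against 1.19 to 51.4 on the other 24 arrays, and Eif2s3y, on the Y chromosome, of 1.47 to 1149, against 1725 to 3390. Levels of the subregions set against other groups therefore rest on arrays whose sex-linked genes go against their label. A further 13 arrays (whole cortex replicates 1 to 5, whole medulla 1 to 5 and sorted medullary thymocytes 1 to 3) had a wide upper tail, with 0.1% of probe sets above 43276 to 75998, against 16919 to 39952 on the others. The same limit was lowest on the 9 subregion arrays, at 16919 to 19984, against 26209 or more on the other 24. The median signal of an array was 71.9 to 163, and correlations within a group were 0.916 to 0.984. The labels call the arrays biological replicates but do not tie regions to animals; sharing of animals within a group would make p-values too small and sharing across groups could make them too large, and neither was tested. Values are signal intensities on the deposited linear scale. Fold changes are differences of mean log2(signal + 26.2) from limma with their standard errors (SE), adjusted by Benjamini-Hochberg over all genes tested, and a gene was called at an adjusted p below 0.05 and an absolute log2 change of at least 1. In bulk RNA, fewer cells of a type and less RNA per cell cannot be told apart.

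**Figure D1:**
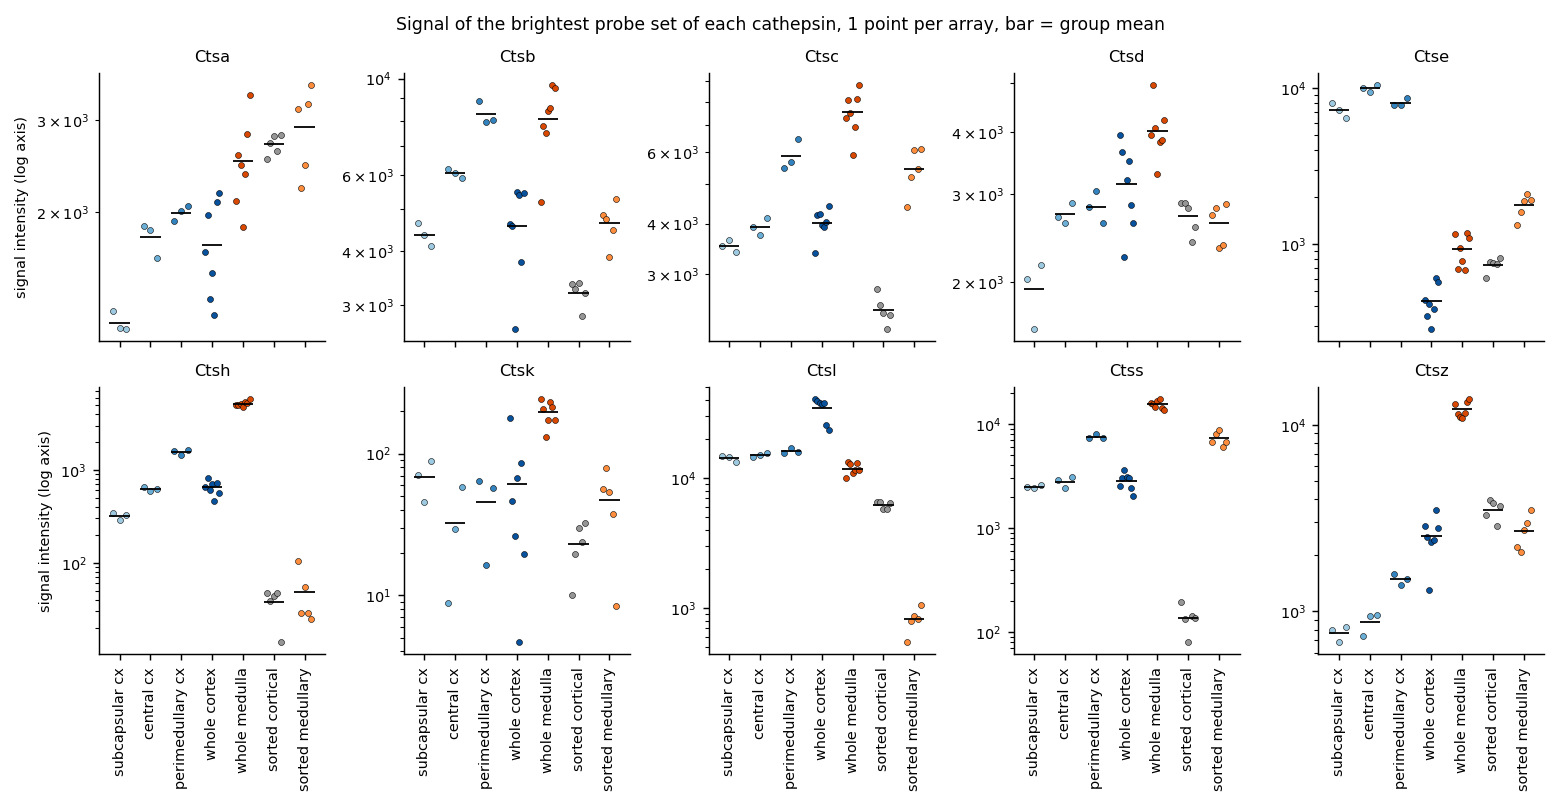
Signal intensity (log axis, a separate range per panel) of the brightest probe set of each cathepsin on each of the 33 arrays, by group. Points are arrays and bars group means. Ctsl is highest in whole cortex (mean 34640) and lowest in sorted medullary thymocytes (821), Ctss is lowest in sorted cortical thymocytes (138), and Ctsh is near the floor in both sorted groups.

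Whole medulla was compared with whole cortex to ask which proteases differ between the compartments as they stand in the tissue. Called higher in medulla were 5 of the 10 cathepsins (Ctse, Ctsh, Ctsk, Ctss and Ctsz), against 18.7% of all genes tested, and 1 was called lower (Ctsl), against 5.39%. The call of Ctse, here and in sorted cells, rests on 1 of its 2 probe sets, and the other went the opposite way. The median log2 change of the 10 was 0.98 and that of all genes 0.11. Among the other 4, Ctsa, Ctsb, Ctsc and Ctsd, the change lay between 0.37 and 0.89 with adjusted p-values of 0.0018 or less, under the fold limit. Dim probe sets turned the other way for Ctsa (-0.70, adjusted p 0.076) and in 2 of 5 for Ctsb (-0.05 and -0.35, adjusted p 0.81 and 0.096), and the mean of both probe sets of Ctsa gave -0.08.

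Ctsl, an endopeptidase that in cortical epithelium degrades the invariant chain, gave 23670, 37990 and 40740 (lowest, median, highest) in whole cortex and 9987, 11510 and 13270 in whole medulla. Every cortical array was above every medullary one. The log2 change was -1.52 (SE 0.11, limma adjusted p 4.7e-14), which is 2.87-fold lower in medulla. Within whole cortex the 5 arrays with a wide upper tail lay at 36910 to 40740 and the other 2 at 25720 and 23670. On arrays with the wide tail alone the change was -1.73, and on arrays without it -1.01. A second, dimmer probe set of Ctsl fell by 1.98 on the log2 scale (SE 0.27, adjusted p 1.2e-07) with no overlap between the groups. Of the 10 cortical epithelium markers listed, 6 were called lower in medulla and 1 higher, with summed signals of 62730 to 74750 in whole cortex and 10040 to 15450 in whole medulla. Of the immature thymocyte markers 9 of 10 were called lower, with sums of 121700 to 186700 and 8883 to 12980, and Rag2 and Ptcra were under the median on every medullary array. Of the neutrophil markers 3 of 6 were called lower, with sums of 2212 to 20610 and 3977 to 6522. All genes had 5.39% called lower and 18.7% higher. The part of these cells in the difference of Ctsl was not tested.

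Ctss, an endopeptidase that degrades the invariant chain in dendritic cells, gave 2014, 2995 and 3647 in whole cortex and 13720, 15670 and 17410 in whole medulla. The lowest medullary array was well above the highest cortical one. The log2 change was 2.46 (SE 0.12, limma adjusted p 2.3e-19), a 5.50-fold difference. Ctsh, an aminopeptidase with some endopeptidase activity, had the largest change of the 10: 464, 649 and 817 in cortex against 4703, 5160 and 5809 in medulla. Its groups were far apart, at a log2 change of 2.97 (SE 0.16, limma adjusted p 2.7e-18), and its second probe set gave 2.66. Ctsz, a carboxypeptidase also called cathepsin X, gave 1308, 2505 and 3481 in cortex and 10930, 11570 and 13800 in medulla. These too did not overlap, the log2 change was 2.29 (SE 0.13, limma adjusted p 6.8e-17), and its 2 other probe sets gave 2.08 and 2.38.

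Ctsk, best known as the collagen-degrading enzyme of osteoclasts, was faint. Its signal was 4.65, 46.0 and 178 in whole cortex and 131, 208 and 244 in whole medulla, so that the brightest cortical array lay inside the medullary range. The call rests on these weak signals, with a log2 change of 1.58 (SE 0.30, limma adjusted p 2.5e-05). Ctsc, the dipeptidyl peptidase that activates granule serine proteases, gave 3391, 4048 and 4411 in cortex and 5911, 7515 and 8766 in medulla. Its groups did not overlap, but the change of 0.89 (SE 0.08, limma adjusted p 1.3e-11) stayed under the fold limit. Its other probe sets gave 1.71 and 0.95. Ctsb, Ctsa and Ctsd, the broadly acting lysosomal enzymes of the set, overlapped between cortex and medulla. Mean signals were 4564 ± 1048 and 8085 ± 1506 for Ctsb, 1725 ± 362 and 2507 ± 487 for Ctsa, and 3143 ± 601 and 4021 ± 503 for Ctsd (SD; cortex first).

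Markers of several cell types were higher in medulla as well, where 18.7% of all genes were called higher and 5.39% lower. Called higher were 8 of 10 dendritic cell markers, 8 of 9 of medullary epithelium, 8 of 9 of mature thymocytes, 7 of 10 of mesenchyme, 4 of 6 of B cells and 3 of 6 of endothelium. Macrophage markers were mixed, with 4 of 12 higher (Csf1r, C1qa, C1qb and Lyz2), 1 lower (Cd163) and 7 not called. Summed dendritic cell signals were 1559 to 1972 in whole cortex and 26260 to 44510 in whole medulla, with Siglech under the array median on every medullary array. Summed macrophage signals were 9893 to 14770 and 31220 to 41580, with Cd163 under the median throughout the medulla, and medullary epithelium summed to 1365 to 1978 and 19910 to 22710, with Aire under the median throughout the cortex. Sums were 6484 to 10200 in whole cortex and 55090 to 67440 in whole medulla for mature thymocytes, 4358 to 7623 and 16270 to 21630 for mesenchyme, 823 to 1477 and 2429 to 4753 for B cells, and 804 to 1181 and 1730 to 2271 for endothelium. Their part in the differences of Ctsh, Ctss, Ctsz and Ctsk was not tested.

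**Figure D2:**
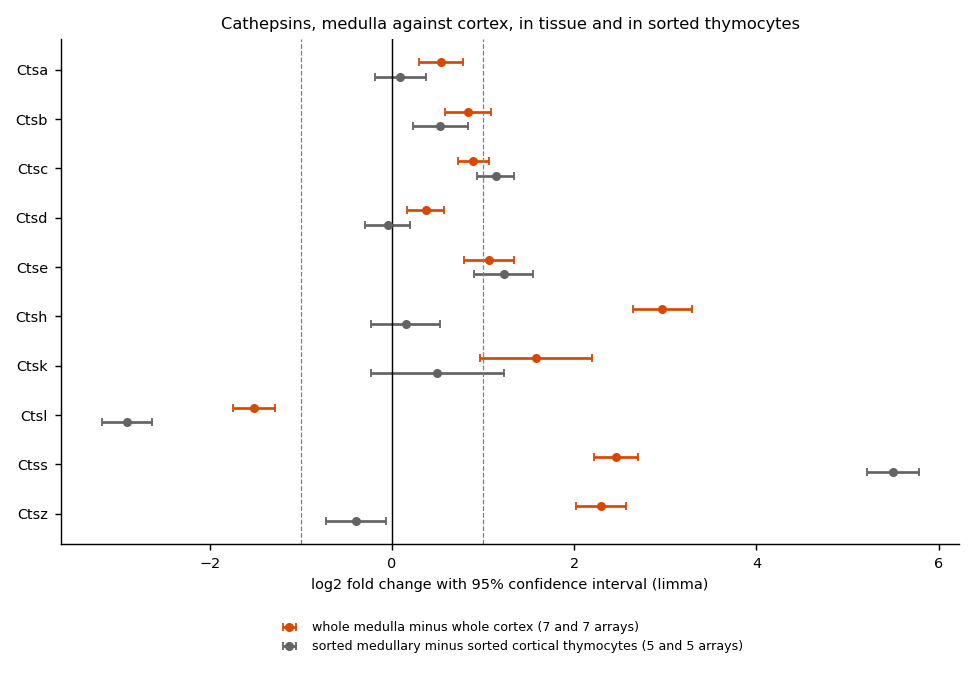
Log2 fold change with its 95% confidence interval for each cathepsin, medulla minus cortex, in dissected tissue (orange) and in sorted thymocytes (grey). Dashed lines mark the fold limit of 1. Ctsl lies left of 0 and Ctss right of 0 in both, while Ctsh and Ctsz lie beyond the limit in tissue alone (2.97 and 2.29, against 0.15 and -0.40 in sorted cells).

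The sorted fractions named for the same compartments, which lack most stroma, were compared as well. Of the 10 cathepsins, 3 were called higher in medullary thymocytes (Ctsc, Ctse and Ctss), against 7.69% of all genes, and 1 lower (Ctsl), against 6.31%. The median log2 change was 0.32, against 0.07 for all genes.

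Ctss was at 194, 134, 80.1, 143 and 138 in the 5 cortical samples and at 6777, 7948, 8709, 6049 and 6781 in the 5 medullary ones. The array medians of the cortical samples were 71.9 to 90.3. Among these samples the signal was under the array median on replicate 3 alone, and it was far above the median in all medullary ones. The log2 change of 5.50 (SE 0.14, limma adjusted p 5.2e-27) stood at the 99.95th percentile of all genes. The sort gates differ in CD3, and 9 of 9 mature thymocyte markers were also called higher, with summed signals of 4830 to 6044 in cortical and 75490 to 96670 in medullary thymocytes. Dendritic cell markers summed to 233 to 410 in cortical and 365 to 816 in medullary thymocytes, with 1 of 10 called higher. Macrophage markers summed to 530 to 616 and 640 to 820, with none of 12 called. B cell markers summed to 854 to 1056 and 677 to 779, with 1 of 6 called higher and 1 lower. Of all genes, 7.69% were called higher and 6.31% lower. Under the array median on all 10 arrays were 5 of the dendritic cell markers (Flt3, Batf3, Fscn1, Ccl22 and Siglech). The same held for 7 of the macrophage markers (Mertk, C1qa, C1qb, C1qc, Cd163, Timd4 and Spic) and for the B cell markers Ms4a1, Cd79a and Fcer2a. The part of these cells in the rise of Ctss was not tested.

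Ctsl fell from 6533, 6557, 5809, 5836 and 6417 in cortical thymocytes to 548, 803, 869, 832 and 1054 in medullary ones. All medullary samples were far under all cortical ones, at a log2 change of -2.91 (SE 0.13, limma adjusted p 1.4e-19). The second probe set, at 18.8 to 124 and 4.15 to 39.9, gave -1.35 (SE 0.32, adjusted p 9.7e-04) with overlapping arrays. Summed cortical epithelium markers were 614 to 813 in cortical and 1017 to 1851 in medullary thymocytes, with Psmb11, Cxcl12, Foxn1, Enpep and Tbata under the array median on all 10 arrays. Immature thymocyte markers were called lower in 8 of 10 cases, with sums of 122100 to 129600 and 20860 to 26080. Neutrophil markers were called lower in 3 of 6 cases, with sums of 373 to 1047 and 118 to 287. Of these, Elane and Ltf were under the array median on all 10 arrays. Of all genes, 6.31% were called lower. The part of these cells in the fall of Ctsl was not tested. Ctsc was at 2758, 2520, 2405, 2202 and 2382 in cortical and at 4400, 5226, 6082, 5450 and 6119 in medullary thymocytes. The fractions did not overlap and the log2 change was 1.14 (SE 0.10, limma adjusted p 3.6e-12); both other probe sets were also higher (0.99 and 0.90).

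Ctsh was at 14.0 to 47.6 in cortical and at 25 to 104 in medullary thymocytes, levels at which no difference could be measured (0.15, SE 0.18, limma adjusted p 0.57). Ctsz was at 2865 to 3935 and at 2074 to 3495, a log2 change of -0.40 (SE 0.16, limma adjusted p 0.046) that was not called. Ctsb gave 0.53 (SE 0.15, adjusted p 0.0039), without overlap but under the fold limit. Ctsa (0.09), Ctsd (-0.05) and Ctsk (0.50) had limma adjusted p-values of 0.29 to 0.78.

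The difference between the tissue and the thymocyte contrast was tested as an interaction, in which a positive value means that the change from cortex to medulla was the higher one in tissue. Of the 10, 3 were called higher (Ctsh, Ctsl and Ctsz), against 12.8% of all genes, and 1 lower (Ctss), against 2.22%. The median was 0.43, against 0.03 for all genes. Ctsh differed by 2.82 (SE 0.24, limma adjusted p 1.3e-11) and Ctsz by 2.69 (SE 0.21, limma adjusted p 1.3e-12), each with the larger rise in tissue. Ctss differed by -3.04 (SE 0.18, limma adjusted p 1.9e-15), the larger rise being that of sorted cells. For Ctsl the brightest probe set gave 1.39 (SE 0.18, limma adjusted p 8.6e-08), the smaller fall being that of tissue, whereas its second probe set gave -0.64 (adjusted p 0.27). The direction of that difference depends on the probe set. No difference between tissue and thymocytes was called for the others, and the 95% interval was -0.51 to 0.02 for Ctsc and 0.13 to 2.04 for Ctsk.

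Tissue was next set against the sorted thymocytes named for the same compartment, to see which enzymes carry signal beyond that of the sorted fraction. As that fraction is gated by surface phenotype, its mix of thymocytes may differ from that of the tissue. In cortex, 3 of the 10 were called higher in tissue (Ctsh, Ctsl and Ctss), against 9.64% of all genes, and none was called lower, against 1.52%. Log2 changes were 3.40 for Ctsh, 2.44 for Ctsl and 4.14 for Ctss, with limma adjusted p-values of 2.7e-18 or less and no overlap between arrays. For Ctsl this is 34640 ± 6926 in tissue against 6230 ± 376 in sorted cells (SD). Under the fold limit, Ctsa (-0.66), Ctse (-0.76) and Ctsz (-0.51) were lower in tissue, with limma adjusted p-values of 7.9e-05, 9.5e-05 and 0.0057. Ctsc (0.71) and Ctsb (0.47) were higher in tissue, with limma adjusted p-values of 7.8e-08 and 0.0056. The probe sets of Ctsa, Ctsb and Ctsz did not all go the same way here, and 2 of 3 of Ctsz were higher in tissue. In medulla, 5 were called higher in tissue (Ctsh, Ctsk, Ctsl, Ctss and Ctsz), against 19.5% of all genes, and none was called lower, against 1.23%. Ctsh had the largest change, 6.22 (SE 0.17, limma adjusted p 9.7e-27), from 48.4 ± 33.5 in sorted cells to 5177 ± 353 in tissue. Ctsl gave 3.83, Ctsz 2.18, Ctsk 1.68 and Ctss 1.10, each with separate groups. Under the fold limit, Ctsb (0.78), Ctsd (0.61) and Ctsc (0.46) were higher in tissue, with adjusted p-values of 5.3e-05 or less. Ctse was lower in tissue (-0.92, SE 0.15, limma adjusted p 2.4e-06, no overlap), and here its second probe set went the same way (-1.31, adjusted p 0.0050). These comparisons reuse the arrays of the earlier ones and give no separate evidence of the compartment difference.

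The 3 dissected parts of the cortex were compared to see how the enzymes vary with depth. All 9 of these arrays share the Xist signal that goes against their label, but they are not alike in Y-linked signal. Eif2s3y was at 1.47 to 24.0 in central cortex, at 482 to 1149 in subcapsular and at 634 to 962 in perimedullary cortex, and its part in the comparisons that use central cortex was not tested. Between subcapsular and central cortex none of the 10 was called: 0.876% of all genes were called higher and 0.446% lower in the subcapsular part. Ctsh was nevertheless lower there by an amount past the p threshold alone (log2 -0.90, SE 0.24, limma adjusted p 0.014), as was Ctsd (-0.50, SE 0.15, limma adjusted p 0.035). Towards the medulla, Ctsh and Ctss were called higher in perimedullary than in central cortex, 2 of 10 against 1.34% of all genes, and none was called lower, against 0.0371%. The same 2 genes were called in perimedullary against subcapsular cortex, against 2.94% of all genes, with none lower, against 1.66%; both comparisons share the perimedullary arrays. Median log2 changes of the 10 were -0.33, 0.39 and 0.71 in these comparisons, and those of all genes between -0.01 and 0.01.

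Ctsh was at 343, 286 and 331 in subcapsular, at 650, 586 and 616 in central and at 1577, 1443 and 1633 in perimedullary cortex. The 3 parts were fully separate, in the order subcapsular, central, perimedullary. The rise from central to perimedullary cortex was 1.29 (SE 0.24, limma adjusted p 6.5e-04) and that from subcapsular to perimedullary 2.19 (SE 0.24, limma adjusted p 2e-08). Ctss was at 2501, 2406 and 2611 in subcapsular, at 2889, 2418 and 3064 in central and at 7252, 7960 and 7294 in perimedullary cortex. Its outer 2 parts overlapped, and the perimedullary arrays lay well above both. Its rise was 1.42 (SE 0.18, limma adjusted p 1e-06) from central and 1.57 (SE 0.18, limma adjusted p 6e-08) from subcapsular cortex.

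Ctsz (0.94), Ctsb (0.92), Ctsc (0.73), Ctsa (0.69) and Ctsd (0.55) were also higher in perimedullary than in subcapsular cortex, with limma adjusted p-values of 6.7e-05 to 0.010, but under the fold limit. The 3 perimedullary arrays of each lay above the 3 subcapsular ones. The second, dim probe set of Ctsa went the other way (-0.61, adjusted p 0.52), and the mean of both gave 0.04. No change of Ctsl with depth was called: its signal was 14270 ± 778 in subcapsular, 15140 ± 460 in central and 16150 ± 685 in perimedullary cortex (SD). The 95% interval of its change from subcapsular to perimedullary cortex was -0.18 to 0.53. Markers of other cells followed depth as well, where 1.34% of all genes were called higher and 0.0371% lower in perimedullary than in central cortex. Of the dendritic cell markers 3 of 10 were called higher in perimedullary than in central cortex, with summed signals of 1466 to 1931 in central and 3403 to 3937 in perimedullary cortex, and of the macrophage markers 2 of 12 were called higher and 1 lower, with sums of 10090 to 12480 and 19520 to 21600. Xcr1 and Cd209a were under the array median in both parts, as was Spic in central cortex. Mature thymocyte markers were called higher in 8 of 9 cases, from 6325 to 7201 up to 19560 to 22330. Their part in the rise of Ctsh and Ctss was not tested.

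**Figure D3:**
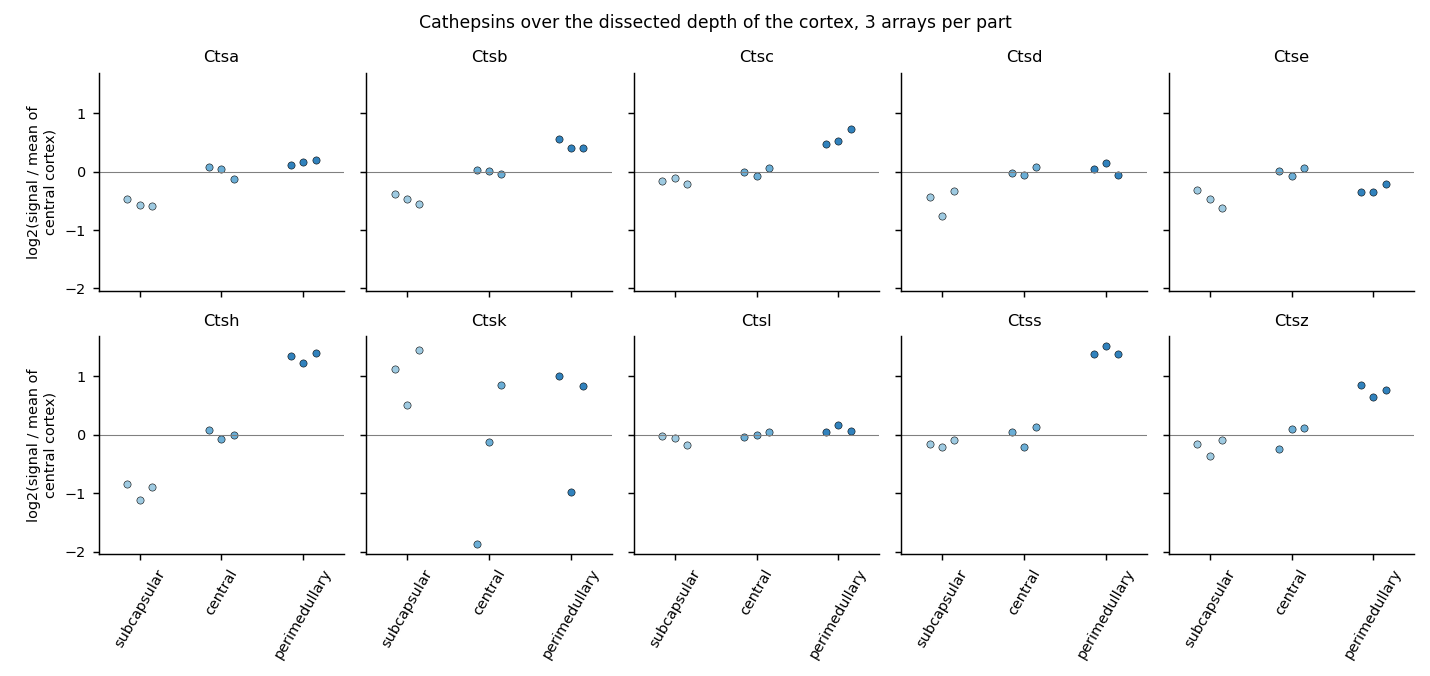
Log2 of the signal of each array over the mean signal of central cortex, for each cathepsin in the subcapsular, central and perimedullary cortex (3 arrays each). Ctsh and Ctss rise towards the medulla, Ctsl stays close to 0, and Ctsk, with signals of 8.79 to 88.1 on these arrays, scatters.

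Ctse, an aspartic protease of endosomes, had 2 probe sets with opposite patterns. The representative one, 1418989_at, gave 287, 414 and 607 in whole cortex and 680, 949 and 1185 in whole medulla, and it rose from 608 to 809 in sorted cortical to 1329 to 2107 in sorted medullary thymocytes. Medulla was thus higher by 1.06 (SE 0.14, limma adjusted p 1.8e-08) in tissue and by 1.22 (SE 0.16, limma adjusted p 6.2e-08) in sorted cells. The other, 1427797_s_at, whose suffix marks probes shared between transcripts, gave 1026, 1772 and 5990 in whole cortex and 531, 573 and 2332 in whole medulla. Across the sorted fractions it went from 7609, 9718, 11960, 9099 and 10560 in cortical down to 2036, 1143, 1342, 4210 and 3887 in medullary thymocytes. By this probe set the change to medulla was -1.30 (limma adjusted p 0.0019) in tissue and -2.12 (limma adjusted p 8.1e-05) in sorted cells. It also split by array type: within whole cortex the 2 arrays without a wide tail lay at 4982 and 5990 and the other 5 at 1026 to 1957. Within medullary thymocytes the arrays with a wide tail lay at 2036, 1143 and 1342, and those without it at 4210 and 3887. No array of cortical thymocytes had a wide tail. The part of array type in the change of this probe set between sorted cells was not tested.

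The subregions set the probe sets of Ctse furthest apart. The representative one reached 7243 ± 786, 9980 ± 449 and 8086 ± 429 in subcapsular, central and perimedullary cortex, against 435 ± 116 in whole cortex, which is the same compartment. The other was at 169 ± 30, 92.5 ± 27.3 and 78.0 ± 13.7 there, against 2667 ± 1970 (SD). As log2 differences of the subregions from whole cortex these are 4.22 and -4.05. Of 6423 genes with several probe sets, 14 (0.218%) had probe sets that moved at least 2 log2 units in opposite directions in this comparison. Ctsb, a cysteine protease with carboxypeptidase activity, showed a milder form: 1448732_at was at 120 to 352 on the 9 subregion arrays and at 1106 to 4747 on the other 24, while 1417490_at was at 4109 to 8885 and at 2650 to 9644. The gap between probe sets was at least that of Ctsb in 62 genes (0.965%). Why these probe sets part was not tested, and no level of Ctse or Ctsb in the subregions against other groups is read from them.

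**Figure D4:**
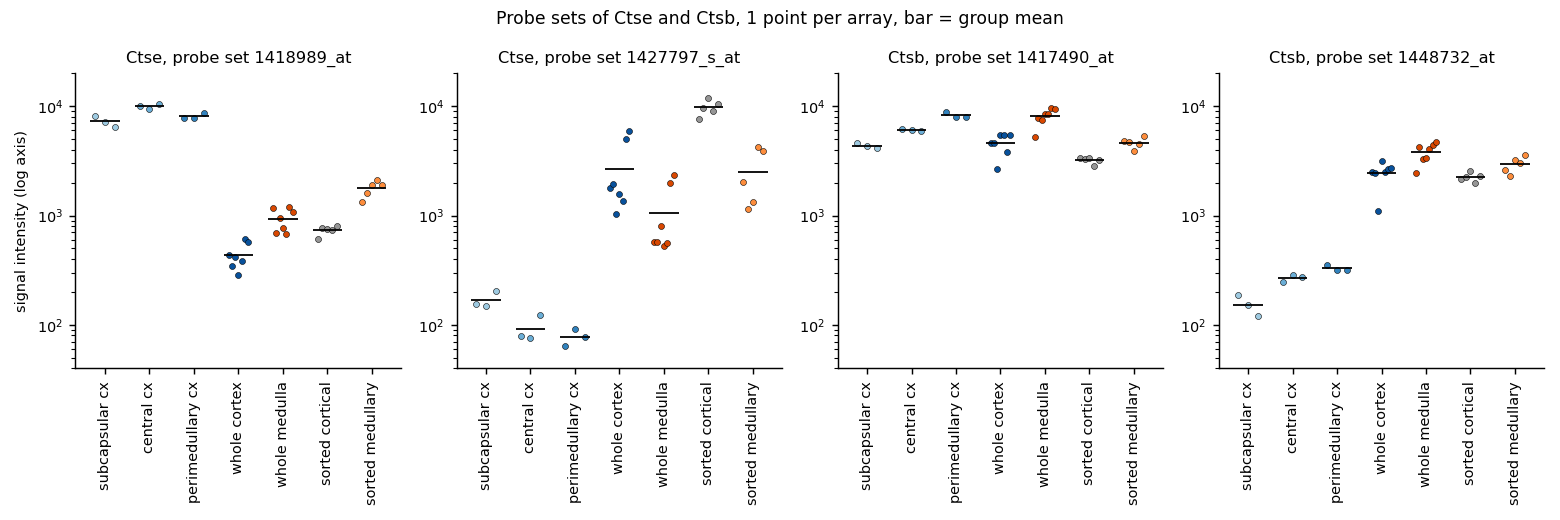
Signal intensity (log axis, the same range in all panels) of 2 probe sets each of Ctse and Ctsb on every array, with bars at group means. The probe sets of Ctse run in opposite directions between cortex and medulla, and in the subregions Ctse 1427797_s_at and Ctsb 1448732_at are lower, and Ctse 1418989_at higher, than in all other groups.

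Ranked over the 7 groups by mean signal of the brightest probe set, Ctss ran from whole medulla (15480 ± 1378) through perimedullary cortex (7502 ± 397) and medullary thymocytes (7253 ± 1061) to whole, central and subcapsular cortex (2828 ± 541, 2790 ± 334 and 2506 ± 103) and cortical thymocytes (138 ± 40; SD). Perimedullary cortex did not differ from medullary thymocytes beyond the spread (0.06, SE 0.16, limma adjusted p 0.78), nor did whole, central and subcapsular cortex among neighbours (adjusted p 0.99 and 0.77). Ctsl ran from whole cortex through perimedullary (16150), central (15140) and subcapsular cortex (14270) and whole medulla (11870 ± 1210) to cortical and medullary thymocytes. No difference passed the threshold among its 3 subregions (limma adjusted p 0.88 and 0.98) or between subcapsular cortex and whole medulla (0.27, adjusted p 0.11), and whole cortex stood above perimedullary cortex by 1.07 (SE 0.15, limma adjusted p 1.3e-07). Whole cortex thus stood above all of its own dissected parts, with a log2 difference of the subregions from it of -1.16, against 0.32 in the second probe set. The place of the subregions against the other groups is therefore not read as a difference of position. The order of Ctsl also depends on the probe set. The second one of Ctsl was highest in perimedullary (487 ± 92), central (453 ± 68) and subcapsular cortex (431 ± 47), followed by whole cortex (365 ± 85), cortical thymocytes (84.6 ± 39.4), whole medulla (82.5 ± 53.9) and medullary thymocytes (16.4 ± 15.9; SD). By it the subcapsular arrays (390 to 482) lay above all arrays of whole medulla (21.8 to 170). Ctsh ran from whole medulla (5177) through perimedullary (1551 ± 98), whole (647 ± 117), central (617 ± 32) and subcapsular cortex (320 ± 30) to medullary and cortical thymocytes (48.4 and 38.2). Whole and central cortex (adjusted p 0.87) and the sorted fractions (adjusted p 0.57) were the neighbours without a difference. In the second probe set of Ctsh, whole cortex (425) stood below perimedullary (1757), central (707) and subcapsular cortex (431). The place of whole cortex among its dissected parts thus depends on the probe set for Ctsh too.

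Ctsz ran from whole medulla (12150 ± 1172) through cortical thymocytes (3514 ± 434), medullary thymocytes (2697 ± 579) and whole cortex (2538 ± 664) to perimedullary (1490 ± 102), central (881 ± 121) and subcapsular cortex (768 ± 75). Whole cortex thus stood above all of its own dissected parts, with a log2 difference of the subregions from it of -1.27. The place of the subregions against the other groups is therefore not read as a difference of position. Medullary thymocytes and whole cortex did not differ (adjusted p 0.55), nor did central and subcapsular cortex (adjusted p 0.73). Whole medulla led and subcapsular cortex was last in the 2 other probe sets of Ctsz as well, but the groups between changed places: perimedullary cortex (1005) stood above whole cortex (852) and both thymocyte groups (827 and 693) in 1 of them, and whole cortex (1136) above both thymocyte groups (1048 and 795) in the other. Ctsc ran from whole medulla (7521 ± 934) through perimedullary cortex (5872 ± 531) and medullary thymocytes (5456 ± 707) to whole (4023 ± 326), central (3935 ± 193) and subcapsular cortex (3529 ± 122) and cortical thymocytes (2453 ± 205). Only the steps below whole medulla (adjusted p 0.0051), below medullary thymocytes (1.2e-04) and above cortical thymocytes (1.9e-04) had limma adjusted p-values below 0.05. Whole medulla also led in the 2 other, dim probe sets of Ctsc, but the groups below it changed places. In 1 of them medullary thymocytes (118) and whole cortex (71.7) stood above perimedullary cortex (50.4), and cortical thymocytes (46.8) above central cortex (32.2). In the other, whole cortex (76.2) stood above perimedullary cortex (64.3) and medullary thymocytes (57.3). Ctsa was led by medullary and cortical thymocytes (2916 ± 545 and 2698 ± 121) and whole medulla (2507 ± 487) and was lowest in subcapsular cortex (1225 ± 54.5), and 1 of its 6 steps, that above subcapsular cortex, had an adjusted p below 0.05 (0.012). In Ctsd whole medulla (4021 ± 503) led, subcapsular cortex was last (1938 ± 289), and the 5 groups between had means of 2621 to 3143 and adjusted p-values between neighbours of 0.43 or more. Without the subregions, Ctsb ran from whole medulla (8085) through medullary thymocytes (4648) and whole cortex (4564), which did not differ (adjusted p 0.75), to cortical thymocytes (3207). Whole medulla (196.5) led for Ctsk, above subcapsular cortex (68) with an adjusted p of 0.0055, and no other neighbours differed (adjusted p 0.50 or more).

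For the members whose group means spanned at least 2 log2 units, the tested genes with the most similar profile over the 7 groups were found by the root mean square (RMS) difference of centred log2 means. These were Ifit1 (0.60), Adam19 (0.67) and Oasl2 (0.72) for Ctss, and Npl (0.61), Camp (0.64) and Fabp5 (0.72) for Ctsl. For Ctsh they were Csf2rb (0.39), Clec7a (0.42) and Cybb (0.45), and for Ctsz Lsr (0.31), Klk7 (0.36) and Tbc1d4 (0.36). Ctsk was closest to Nexn (0.12), Klk1b8 (0.13) and Aox4 (0.13), and the representative probe set of Ctse, whose profile is set by its high signal in the subregions, to Acaa1a (0.49), Timm44 (0.60) and Mid1 (0.64). These are likenesses over 7 means and no test.

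Of 15 listed inhibitors, 7 were tested. In whole medulla 4 were called higher than in whole cortex and none lower, against 18.7% and 5.39% of all genes, with a median change of 1.56 against 0.11 over all genes. Cst3, the secreted cystatin C, was at 17040 ± 1895 in medulla and 5849 ± 1245 in cortex (1.56, SE 0.11, limma adjusted p 5.6e-15). Cst7, cystatin F, an inhibitor kept inside lysosomes of blood cells, was at 629 ± 94.5 and 65.5 ± 47.5 (3.02, SE 0.25), Cst6, cystatin M, at 704 ± 136 and 128 ± 57.8 (2.31, SE 0.22), and Stfa3, a stefin A with near-identical copies that its probes may share, at 283 ± 73.2 and 53.9 ± 42.5 (2.13, SE 0.29). Cstb, the cytosolic stefin B, was lower in medulla in its brightest probe set by an amount under the fold limit (-0.88, SE 0.15, limma adjusted p 3.1e-06), and its second probe set gave -1.31. In whole cortex Cstb split like Ctsl, at 16890 and 17010 on the 2 arrays without a wide tail and at 32520 to 36390 on the other 5.

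In sorted cells 3 of the 7 inhibitors were called higher in medullary than in cortical thymocytes, against 7.69% of all genes, and none lower. Cst7 rose from 29.9 ± 24 to 452 ± 80.8 (3.16, SE 0.29), Ctla2a from 239 ± 36.7 to 701 ± 69.2 (1.46, SE 0.21) and Ctla2b from 38.8 ± 11.7 to 128 ± 37.5 (1.23, SE 0.24). The Ctla2 proteins resemble the propeptide of cathepsin L and are near copies of each other. Cst3 went the other way there (-0.57, limma adjusted p 3.6e-04, under the fold limit). In the interaction Cst3 (2.13), Cst6 (2.27) and Stfa3 (2.22) were called with the larger rise in tissue, and Cstb (-1.51) the other way. Against sorted cortical thymocytes, whole cortex was called higher for Cst3 (1.19), Cst6 (2.08), Cstb (3.23) and Ctla2b (1.48), and against sorted medullary thymocytes whole medulla for Cst3 (3.33), Cst6 (4.34), Cstb (1.72) and Stfa3 (2.66). No inhibitor was called between the subregions.

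**Figure D5:**
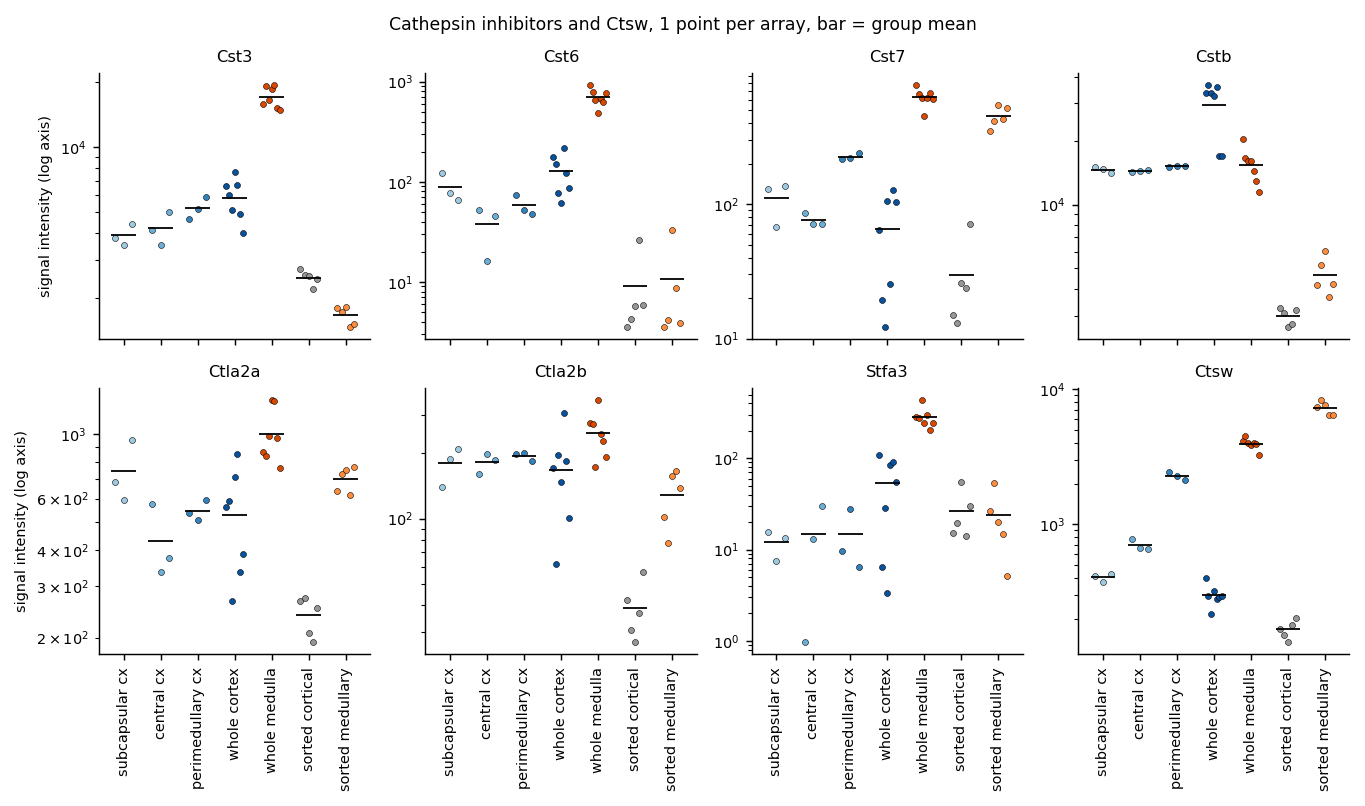
Signal intensity (log axis, a separate range per panel) of the 7 inhibitors tested and of the cathepsin Ctsw on every array, with bars at group means. Cst3, Cst6 and Stfa3 are highest in whole medulla. Cst3 and Cst6 are lowest in the sorted groups. There Cst6 is near the floor, but Cst3 is far above the array median (mean 2497 for cortical cells, 1672 for medullary cells). Stfa3 is faint in the sorted groups (26.6 and 24.1) and lowest in the subregions (12.1 to 14.7). Cst7 and Ctsw are also high in sorted medullary thymocytes.

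Of 12 other cathepsins on the list, 3 were tested. Ctsw, the lymphocyte cathepsin of cytotoxic cells, was at 300 ± 54.4 in whole cortex and 3958 ± 366 in whole medulla (3.62, SE 0.10, limma adjusted p 3.8e-26), and at 167 ± 26.5 and 7211 ± 803 in cortical and medullary thymocytes (5.23, SE 0.12). The rise was larger in sorted cells (interaction -1.61). It was also called in perimedullary against central (1.66) and subcapsular cortex (2.41). Ctsg, a neutrophil granule serine protease, was called lower in medulla (-1.75, SE 0.36, limma adjusted p 7.7e-05) at weak, overlapping signals of 2.77 to 217, and was also called in the interaction (-1.77) and higher in whole cortex than in cortical thymocytes (2.11). Ctso, a widely expressed cysteine protease, was not called in any comparison.

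Counts of the other lists in whole medulla against whole cortex stand beside 18.7% of all genes called higher and 5.39% lower, and a median over all genes of 0.11. Of the MHC class II presentation genes, 10 of 10 tested were called higher in whole medulla than in whole cortex, with a median of 2.32, led by H2-Eb1 (3.05) and H2-Ob (3.02), chains of class II molecules, and Cd74 (2.65). In sorted cells 4 of the 10 were called higher, against 7.69% of all genes. Of 9 other proteases of lysosomes and antigen processing, 5 were called higher in medulla and 2 lower. The largest changes were those of Psmb11 (-4.25), the thymoproteasome subunit of cortical epithelium, Prss16 (-3.90), the thymus-specific serine protease, and Scpep1 (2.83), a serine carboxypeptidase. Of 22 lysosomal hydrolases and their cofactors, 4 were called higher and 1 lower, shares close to those of all genes, with Arsb, an arylsulfatase, at 2.82, Gusb, beta-glucuronidase, at 1.51 and Lipa, the acid lipase, at -1.42. Lysosome membrane, sorting and regulatory genes had 2 of 15 called higher, the regulators Tfe3 (1.64) and Tfeb (1.54), and a median of 0.42. The vacuolar proton pump, which acidifies the lysosome, had 2 of 15 called higher, Atp6v0a1 (1.55) and Atp6v0d2 (1.15), and a median of -0.04; both counts are under the share of all genes. Between sorted fractions neither of these last lists had a called gene, and the hydrolases had 5 of 22 called higher and 1 lower, against 7.69% and 6.31% of all genes.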

How the data were processed

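Signal of 45037 probe sets on 33 Affymetrix arrays was analysed. The authors deposited signal intensity on a linear scale, made with Affymetrix Expression Console 1.0 and MAS5 per the submitters' processing notes; background settings are not given in the sources used here. From the values, each array was scaled on its own (trimmed means 492.3 to 498). RNA was primed with oligo-dT, per the labels' protocols. Probe sets were named by the GEO platform annotation: 34945 had 1 symbol, 932 several and 9160 none. Probe sets above their array's median on at least 3 arrays were kept (30045), and the brightest of each gene was used. An offset of 26.2, the median 25th percentile of the arrays, was added before log2. All 33 arrays were fitted by limma (3.58.1, in R 4.3.3), with a mean for each of the 7 groups, a trended prior and 26 residual degrees of freedom, and 8 comparisons were made with 2-sided tests. The code was tested on simulated data. Probe sets were fitted the same way over all 30045. The members, lists and motifs were chosen with earlier results of these data known. Named genes were all members, the 3 most similar genes of each member that spanned 2 log2 units, every called inhibitor and other cathepsin, and up to 3 genes of each other list by size of change. Promoter windows came from RefSeq (GRCm38.p6). Replicate numbers were not used to pair the samples in the main fit. Nothing states that arrays came from separate animals beyond the titles, so p-values measure the spread between these arrays. Precision is limited by the number of arrays. Alternatives were the offset, normalization, filter, choice of probe sets, groups fitted, replicate block, array weights, the wide upper tail and each array left out. A fit without the subregion arrays was added after seeing the data.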

Additional observations from a re-analysis of the deposited data

Results flagged for a closer look

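Some arrays lay far from the rest of their group. Ctsb was 5190 on whole medulla replicate 1, against 7500 to 9640 on the other 6. Ctsh was 14 on sorted cortical thymocyte replicate 5, against 38.5 to 47.6 on the others, all weak signals. Ctsz was 1310 on whole cortex replicate 3, against 2350 to 3480, and Ctsb was also lowest on that array (2650). Of 40 groups examined 3 held such an array, where 2 are expected by chance.

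The change from cortex to medulla differed between tissue and sorted thymocytes for 4 members by the interaction term in limma: Ctsh by 2.82 (adjusted p 1.3e-11), Ctsz by 2.69 (adjusted p 1.3e-12), Ctsl by 1.39 (adjusted p 8.6e-08) and Ctss by -3.04 (adjusted p 1.9e-15). The value of Ctsl did not hold in its second probe set.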

How the results depend on the processing

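Of the counts of called members, 184 alternative values stayed within 1.5 times the reported one. With plain-suffix probe sets only, the interaction count was 2 of 8 members tested, not 4. Averaging the probe sets of a gene turned Ctse to -0.12 (adjusted p 0.67) in tissue and -0.45 (adjusted p 0.19) in sorted cells, and plain-suffix probe sets turned the interaction of Ctsl to -0.64 (adjusted p 0.27). Ctse in tissue also fell under the fold limit after quantile normalization (0.94), on arrays without a wide tail (0.92) and without whole cortex replicate 4 (0.98). Ctsl's interaction was 0.38 and uncalled with averaged probe sets. Ctsc in tissue passed the limit with averaged probe sets (1.18). The interaction of Ctsk was called on arrays without a wide tail (1.66) and without whole cortex replicate 1 (1.33) or sorted medullary replicate 2 (1.24). Leaving out each array in turn gave counts of 5 to 6 in tissue, 4 to 5 for the interaction, 5 to 6 for whole against sorted medulla and no change elsewhere. Same-numbered arrays were not treated as paired in the main fit. Their correlations of cortex with medulla were -0.03 to 0.26, over 0.1 in 4 of 7 pairs, which does not settle whether they share animals. With the replicate block the tissue count was 6 and the sorted count 4, and Ctse was called in whole against sorted medulla (-1.07). Without the subregion arrays no call of a member changed in the other 5 comparisons. The weak signals of Ctsk, and those of Ctsh near the offset in sorted cells, limit what can be measured.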
